A study of Homo sapiens with 8 samples.

Results

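The serine and folate one-carbon enzymes described here are 9 genes of the 60668 in the deposited tables. They were chosen by name for their place in the pathway, though with earlier results of these data known. PHGDH, PSAT1 and PSPH make serine from a glycolytic intermediate, SHMT1 and MTHFD1 work in the cytosolic folate cycle, and SHMT2, MTHFD2, MTHFD1L and ALDH1L2 work in the mitochondrial one. The cells were D283-OMO, the medulloblastoma line D283 MED made by lentiviral transduction and hygromycin selection to carry a DOX-inducible, Flag-tagged OMOMYC, a dominant-negative mini-protein derived from MYC. RNA-Seq covered 4 untreated replicates (OMO) and 4 replicates given doxycycline for 72 h (OMO+DOX), and both groups carry the transgene. No DOX-treated line without OMOMYC was analysed here, so effects of DOX and of OMOMYC cannot be told apart. Of the 9 genes, 8 exceeded 1 CPM in 4 or more of the 8 libraries and were tested. CPM is a gene's read count relative to the total of its library, the total being adjusted by TMM factors. ALDH1L2 did not pass. Untreated replicate 3 stood apart from the other untreated libraries, with a mean correlation of 0.9903 to them against 0.994 to 0.9946 for the others over all tested genes. Without it all 8 tested genes were still called lower, with log2FC from -1.36 for SHMT1 to -0.35 for PSAT1.

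Cells take up serine or build it from 3-phosphoglycerate, and serine hydroxymethyltransferases then pass one of its carbons to tetrahydrofolate, leaving glycine. The folate cycle carries that carbon through several oxidation states and supplies it for purines, thymidylate and methionine. Parallel enzymes do this in mitochondria and cytosol, joined by formate, which the mitochondrial arm releases and the cytosolic arm takes up. Genes of the pathway are known targets of MYC and of ATF4, the transcription factor of the amino acid and integrated stress response.

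RefSeq promoters of GRCh38.p14, each running from 250 bases before to 50 after an annotated start, were found for 6 of the 9 genes (PHGDH, PSAT1, SHMT1, MTHFD1, MTHFD2 and MTHFD1L). The searched motifs, on both strands, were CACGTG, the canonical E-box recognised by MYC with MAX, CACGCG, a variant E-box whose reverse complement is CGCGTG, and TGATGNAA, the core recognised by ATF4 with C/EBP partners. The promoters of MTHFD1, MTHFD2 and MTHFD1L are shown because they hold these letters, which stand in capitals, and because their genes fell by different amounts. That of PSAT1 also holds a motif and is not shown. Any relation of motifs to the size of the fall was not tested. The promoters shown lie at chr14:64388103-64388402, chr2:74198365-74198664 and chr6:150866236-150866535, all on the plus strand, and the last is the first of 4 RefSeq promoters of MTHFD1L.
MTHFD1: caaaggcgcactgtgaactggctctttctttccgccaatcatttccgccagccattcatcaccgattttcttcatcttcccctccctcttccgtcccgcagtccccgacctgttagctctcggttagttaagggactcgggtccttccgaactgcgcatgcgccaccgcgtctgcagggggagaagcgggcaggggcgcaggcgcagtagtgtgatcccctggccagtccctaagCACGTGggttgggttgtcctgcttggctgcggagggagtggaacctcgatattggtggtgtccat
MTHFD2: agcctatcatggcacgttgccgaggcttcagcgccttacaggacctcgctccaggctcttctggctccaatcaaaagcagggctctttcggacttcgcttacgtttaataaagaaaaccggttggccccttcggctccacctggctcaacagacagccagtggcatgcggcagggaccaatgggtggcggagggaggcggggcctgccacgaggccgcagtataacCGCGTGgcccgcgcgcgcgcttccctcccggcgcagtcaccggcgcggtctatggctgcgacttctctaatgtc
MTHFD1L: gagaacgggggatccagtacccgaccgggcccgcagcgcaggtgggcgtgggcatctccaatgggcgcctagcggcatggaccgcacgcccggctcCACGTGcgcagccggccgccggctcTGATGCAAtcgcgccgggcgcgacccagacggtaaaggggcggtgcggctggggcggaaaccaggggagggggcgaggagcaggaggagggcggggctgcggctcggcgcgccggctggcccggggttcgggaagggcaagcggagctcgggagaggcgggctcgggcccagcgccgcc
The first base of CACGTG lay at -15 from the start of MTHFD1 and at -154 from that of the MTHFD1L promoter shown, where TGATGNAA followed at -129. Counted from the starts of promoters 2 and 3 of MTHFD1L, the same CACGTG lay at -1 and -115 and TGATGNAA at 25 and -90. Promoter 4 of MTHFD1L, at chr6:151006758-151007057, held none of these motifs. MTHFD2 held CGCGTG at -24, and PSAT1 held CACGCG at 39. None of the 3 motifs was in the windows of PHGDH and SHMT1. CACGTG was thus present for 2 of the 6 genes, CACGCG for 2 and TGATGNAA for 1. Among all 35116 RefSeq promoters 7.26% hold CACGTG, 11.4% hold CACGCG and 3.62% hold TGATGNAA. The counts are per gene and the shares per promoter, which differ for MTHFD1L, where all 4 promoters were searched. These matches describe letters in a window and show no binding.

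All 8 tested genes were lower in DOX-treated D283-OMO cells (edgeR's quasi-likelihood test, Benjamini-Hochberg adjusted p below 0.05), and 0 were higher. In the same fit 38.1% of the 15222 genes tested were called lower and 76.6% were called in either direction, so a call on its own sets no gene apart. For all 8 genes every untreated library lay above every DOX-treated one, as it did for 35.4% of all tested genes. The median log2FC of the 8 genes was -0.83, with a range from -1.34 to -0.33, and that of all tested genes was 0.01. Only SHMT1 and MTHFD1 fell by more than 1 on the log2 scale, which 9.81% of all tested genes did and 20.9% did in either direction. At a stricter FDR below 0.001 with an absolute log2FC above 2, 0 of the 8 genes and 7.12% of all tested genes were called, and 2.75% were called lower. Summed over the 9 genes, the RNA level was 2801, 2814, 2996 and 2858 CPM in untreated replicates 1 to 4 and 1573, 1798, 1616 and 1763 CPM in DOX-treated replicates 1 to 4. The mean sum went from 2867 ± 89.3 to 1688 ± 109 CPM (SD, n = 4), a change of -41.1%. CPM are shares of a library, and in such bulk samples fewer cells of a kind and less RNA per cell cannot be told apart.

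**Figure D1:**
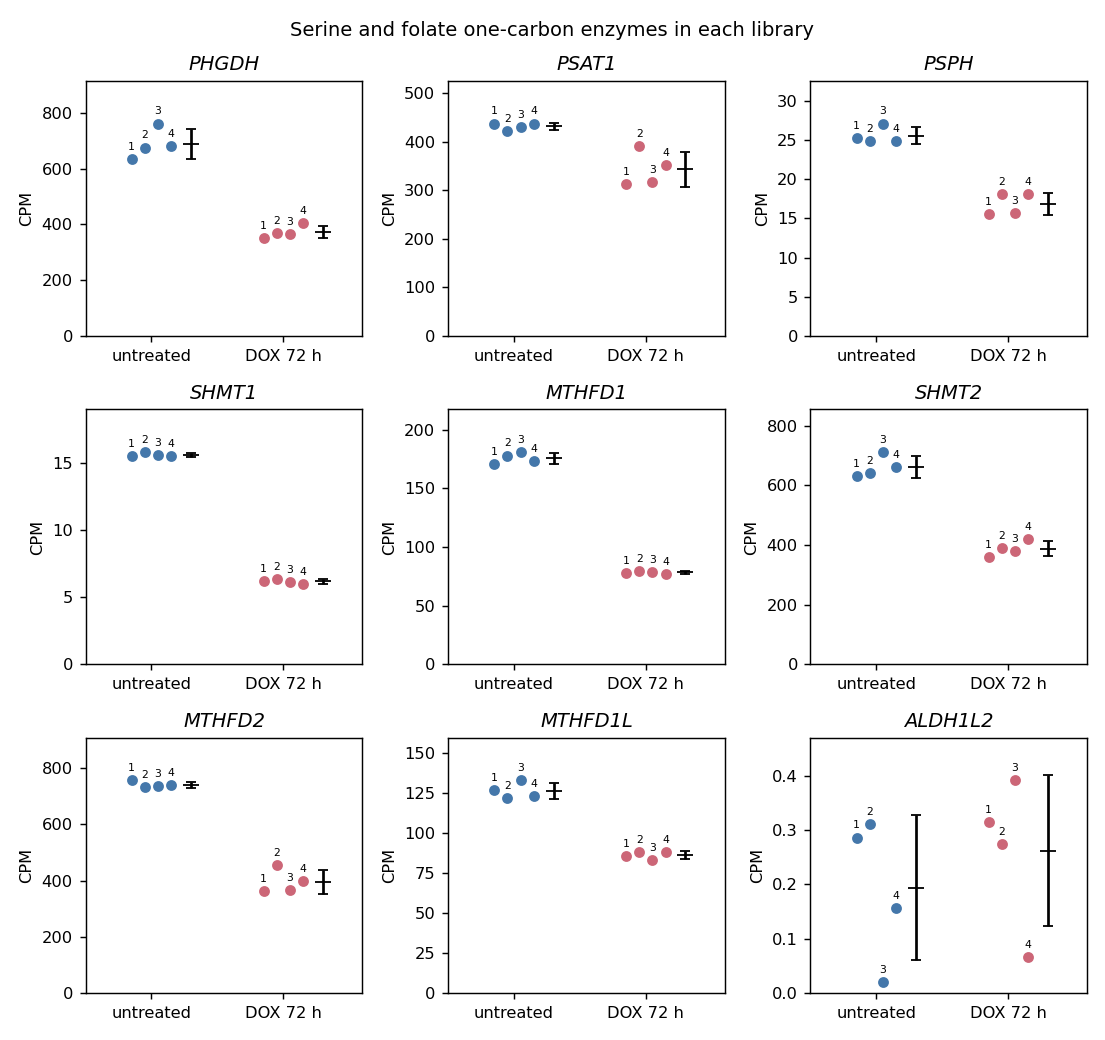
TMM-scaled CPM of the 9 genes in each library, with the replicate number above each point and the mean ± SD of 4 libraries beside each group. In all panels but that of ALDH1L2 the untreated and DOX-treated libraries do not overlap, and SHMT1 has the largest relative distance between its groups.

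Total counts were 46592947 to 54020506 in the untreated and 38390696 to 49249167 in the DOX-treated libraries, and 3 counts corresponded to 0.0581 to 0.0748 CPM. MYC itself, whose reads cannot be told apart from those of OMOMYC in counts per gene, had 880.2, 899, 1049 and 928 CPM in untreated and 1179, 1047, 1115 and 1150 CPM in DOX-treated libraries, so that the groups overlapped by 1 library each (log2FC 0.26 ± 0.06 SE, edgeR adjusted p = 0.00237). The known MYC targets CAD and NCL were lower: CAD, which starts pyrimidine synthesis, from 162 ± 4.07 to 116 ± 4.74 CPM, and NCL, nucleolin, from 1554 ± 58.6 to 1145 ± 5.73 CPM (SD, n = 4). Markers of Group 3 medulloblastoma were OTX2, CRX, NRL, NPR3, GABRA5, IMPG2, EOMES and NEUROD1. Of these 8, 7 were tested and 7 were lower, beside 38.1% lower among all tested genes. EOMES did not pass the filter and went the other way, from 0.264 ± 0.157 to 0.777 ± 0.223 CPM (SD, n = 4), with no overlap. The summed level of the 8 markers was 2292 to 2507 CPM in untreated and 726 to 744 CPM in DOX-treated libraries. Fibroblast markers summed to 35.1 to 37.6 and 55.7 to 69.1 CPM, with COL1A2, COL3A1, DCN and LUM below the filter. That rise was mostly PDGFRB, from 13.5 to 40.4 CPM, while COL1A1 was not called (22.1 and 23.4 CPM). Below the filter COL3A1 was higher with DOX, COL1A2 and DCN were lower, and LUM overlapped. Epithelial markers summed to 13.7 to 17.4 and 3.96 to 4.71 CPM, mostly from KRT8, which fell from 15.8 to 3.72 CPM. EPCAM, KRT18 and CDH1 did not pass the filter. Of these, CDH1 went the other way, from 0 to 0.569 CPM, and EPCAM and KRT18 overlapped. Blood markers summed to 0.426 to 0.561 and 0.0660 to 0.199 CPM, with CD3E at 0 in the untreated libraries. These sums moved with the same contrast as the enzymes, but the genes within a list did not all move alike. The part of these markers in the enzymes' values was not tested.

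RNA of the serine synthesis enzymes was lower at each of the 3 steps, by unequal amounts. PHGDH (ENSG00000092621.12, chr1:119648411-119744226, plus strand), which oxidises 3-phosphoglycerate in the committing step, had 635, 676, 762 and 680.3 CPM in untreated replicates 1 to 4 and 351, 368, 367 and 404 CPM in DOX-treated replicates 1 to 4. The untreated libraries, with replicate 3 highest, all lay above the DOX-treated ones. From 688 ± 53.2 to 373 ± 22.3 CPM (SD, n = 4), the log2FC was -0.89 ± 0.06 SE, or 1.85-fold lower (edgeR adjusted p = 1.24e-07). These values rest on 30358 to 37492 counts per untreated and 14782 to 18785 per DOX-treated library.

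PSAT1 (ENSG00000135069.14, chr9:78297143-78330093, plus strand) is the aminotransferase that puts the amino group on the serine skeleton. Its untreated libraries gave 438, 423, 430.4 and 438 CPM and its DOX-treated libraries 314, 391, 318 and 352 CPM. The groups were apart, though DOX-treated replicate 2, at 391 CPM, came near the lowest untreated library at 423 CPM. The mean went from 433 ± 7.34 to 344 ± 35.8 CPM (SD, n = 4) with a log2FC of -0.33 ± 0.07 SE, the smallest fall of the 8 genes (1.26-fold, edgeR adjusted p = 0.000711). With library sizes not scaled by TMM the log2FC of PSAT1 was -0.20 (edgeR adjusted p = 0.0156), a setting that raised the median log2FC of all tested genes by 0.13.

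PSPH (ENSG00000146733.14, chr7:56011051-56051604, minus strand), the phosphatase that releases free serine, had 25.3, 24.9, 27.1 and 24.9 CPM in untreated and 15.6, 18.1, 15.7 and 18.1 CPM in DOX-treated libraries. Groups did not overlap, and DOX-treated replicates 2 and 4 were the higher ones. PSPH fell from 25.5 ± 1.04 to 16.9 ± 1.42 CPM (SD, n = 4), 1.51-fold, with a log2FC of -0.60 ± 0.06 SE (edgeR adjusted p = 4.28e-06). The sum of the 3 serine synthesis genes changed by -36.0%.

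The cytosolic folate enzymes had the lowest log2FC of the 8 tested genes. SHMT1 (ENSG00000176974.20, chr17:18327860-18363563, minus strand), the cytosolic serine hydroxymethyltransferase, had 15.5, 15.8, 15.6 and 15.5 CPM in the untreated libraries and 6.23, 6.35, 6.12 and 5.99 CPM in the DOX-treated ones. All untreated values were above all DOX-treated values by a wide margin. The change from 15.6 ± 0.121 to 6.17 ± 0.156 CPM (SD, n = 4) was 2.53-fold, with a log2FC of -1.34 ± 0.05 SE (edgeR adjusted p = 8.57e-10), from 693 to 816 counts per untreated and 255 to 316 per DOX-treated library. SHMT1 shares 196 exonic bases with SMCR8 on the other strand, whose level was 32.4 CPM untreated and 37.3 CPM with DOX. The libraries were made with a stranded kit, but whether RSEM counted reads by strand is not given in the sources used here. In these counts, reads from such overlaps therefore cannot be told apart.

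MTHFD1 (ENSG00000100714.17, chr14:64388031-64463457, plus strand) carries 3 activities of the cytosolic cycle, among them the one that takes up formate. In untreated replicates 1 to 4 its level was 171, 178, 181 and 173 CPM, and in DOX-treated replicates 1 to 4 it was 78.3, 79.8, 79.0 and 77.1 CPM. Both groups were tight and far apart. MTHFD1 fell from 176 ± 4.60 to 78.5 ± 1.16 CPM (SD, n = 4), 2.24-fold, with a log2FC of -1.16 ± 0.04 SE (edgeR adjusted p = 2.66e-10). It overlaps ZBTB25 by 178 and AL122035.2 by 756 exonic bases on the other strand, and these had 29.6 and 1.05 CPM in untreated cells. Together SHMT1 and MTHFD1 changed by -55.8% in summed CPM.

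Among the mitochondrial enzymes, 3 fell and ALDH1L2 had few counts. SHMT2 (ENSG00000182199.11, chr12:57229327-57234935, plus strand), which splits serine inside mitochondria, had 633, 641, 712 and 661 CPM in untreated and 361, 389, 381 and 420.2 CPM in DOX-treated libraries. There was no overlap, with untreated replicate 3 and DOX-treated replicate 4 the highest of their groups. SHMT2 went from 662 ± 35.4 to 388 ± 24.7 CPM (SD, n = 4), 1.71-fold lower, with a log2FC of -0.77 ± 0.06 SE (edgeR adjusted p = 1.72e-07). It overlaps NDUFA4L2 by 33 and AC137834.2 by 427 exonic bases on the other strand, at 5.80 and 0.223 CPM in untreated cells.

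MTHFD2 (ENSG00000065911.12, chr2:74198562-74217565, plus strand), the dehydrogenase and cyclohydrolase that carries the carbon on toward formate, had 756, 732, 735 and 741 CPM without DOX and 361, 456, 366 and 397 CPM with DOX. The untreated libraries lay close together and above all DOX-treated ones, of which replicate 2 was the highest. Its mean went from 741 ± 10.4 to 395 ± 43.5 CPM (SD, n = 4), 1.88-fold lower, with a log2FC of -0.91 ± 0.07 SE (edgeR adjusted p = 2.04e-07). SLC4A5 on the other strand shares 1324 exonic bases with MTHFD2 and stood at 8.97 CPM untreated and 8.52 CPM with DOX.

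MTHFD1L (ENSG00000120254.15, chr6:150865549-151101887, plus strand), the synthetase that frees formate from the mitochondrial cycle, had 127, 122, 133 and 123 CPM in untreated and 86.0, 88.4, 83.2 and 88.0 CPM in DOX-treated libraries. The groups were well apart. MTHFD1L fell from 126 ± 4.70 to 86.4 ± 2.38 CPM (SD, n = 4), 1.46-fold, with a log2FC of -0.55 ± 0.04 SE (edgeR adjusted p = 4.01e-07).

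ALDH1L2 (ENSG00000136010.14, chr12:105019784-105084577, minus strand), which oxidises the mitochondrial formyl group to carbon dioxide, gave 0.286, 0.310, 0.0203 and 0.157 CPM in untreated and 0.315, 0.274, 0.391 and 0.0660 CPM in DOX-treated libraries. Untreated and DOX-treated libraries overlapped. These values rest on 1 to 16 counts per untreated and 3 to 20 per DOX-treated library, and ALDH1L2 was not called in the fit with no filter on low counts either. Summed CPM of the 4 mitochondrial genes changed by -43.1%.

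The authors' read counter, RSEM, splits reads shared between genes, and its expected counts of MTHFD1 and MTHFD2 were not whole numbers in 8 of 8 libraries, those of SHMT2 in 7, SHMT1 in 4 and PHGDH in 1, and those of the other 4 genes in 0. Pseudogenes that carry the symbols of the 9 genes had group means of at most 0.0375 CPM. Similar loci under other names were not looked at. Among the genes named from the surrounding lists, counts of SLC6A9, GCSH, SLC19A1, TYMS, MTHFD2L, AHCY, ATF4 and DDIT4 were also not whole in 8 of 8 libraries, and their levels share that uncertainty.

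Levels of different genes were compared as CPM per kb of exon, counting every annotated exonic base of a gene once. On that scale in untreated cells the order was PSAT1 (198 ± 3.35), MTHFD2 (152 ± 2.14), SHMT2 (137 ± 7.31), PHGDH (74.7 ± 5.78), MTHFD1L (25.1 ± 0.936), MTHFD1 (18.8 ± 0.490), PSPH (9.25 ± 0.377), SHMT1 (2.14 ± 0.0167) and ALDH1L2 (0.0227 ± 0.0157 CPM per kb, SD, n = 4). No neighbours in this order overlapped in untreated cells. With DOX the order was the same, but MTHFD2 (74.1 to 93.6) and SHMT2 (74.6 to 86.9 CPM per kb) overlapped. The order of the upper 4 depends on the length used. By the longest annotated transcript PHGDH (199.7 to 239.7), PSAT1 (193 to 200.4) and SHMT2 (185 to 208 CPM per kb) overlapped in untreated cells, above MTHFD2 (164 to 169.6), and with DOX PSAT1 (144 to 179) lay above PHGDH (110.3 to 127). The lower 5 kept their ranks.

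The log2FC of the 3 tested mitochondrial enzymes was closer to 0 than that of SHMT1 and MTHFD1. The 3 ratios of mitochondrial to cytosolic RNA formed from them were thus higher in DOX-treated libraries. ALDH1L2 and its cytosolic counterpart ALDH1L1 had too few counts and were not made a ratio. Their mean levels were 0.193 and 0.0150 CPM untreated and 0.262 and 0.0988 CPM with DOX. SHMT2 to SHMT1, as a ratio of CPM per kb, was 61.3, 61.1, 68.8 and 64.0 in untreated and 87.2, 92.2, 93.6 and 106 in DOX-treated libraries, with means of 63.8 ± 3.59 and 94.7 ± 7.81 (SD, n = 4). The ratio of MTHFD1L to MTHFD1, the pair that releases and takes up formate, was 1.38, 1.28, 1.37 and 1.33 without DOX and 2.05, 2.07, 1.97 and 2.13 with DOX. For MTHFD2 to MTHFD1 it was 8.49, 7.91, 7.81 and 8.25 against 8.88, 11.0, 8.93 and 9.93. None of the 3 ratios overlapped between the groups, and the DOX-treated mean was 1.48, 1.53 and 1.19 times the untreated mean. Levels of single genes did not overlap, in either direction, for 71.7% of all tested genes. Ratios of other gene pairs were not computed, so no share of ratios stands beside these. No test was run on the ratios, which were chosen with the log2FC of these genes known. The ratios do not depend on how libraries are scaled, but their level depends on the gene length used. With the longest transcripts SHMT2 to SHMT1 was 34.2 untreated and 50.7 with DOX, at the same 1.48 between the groups.

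**Figure D2:**
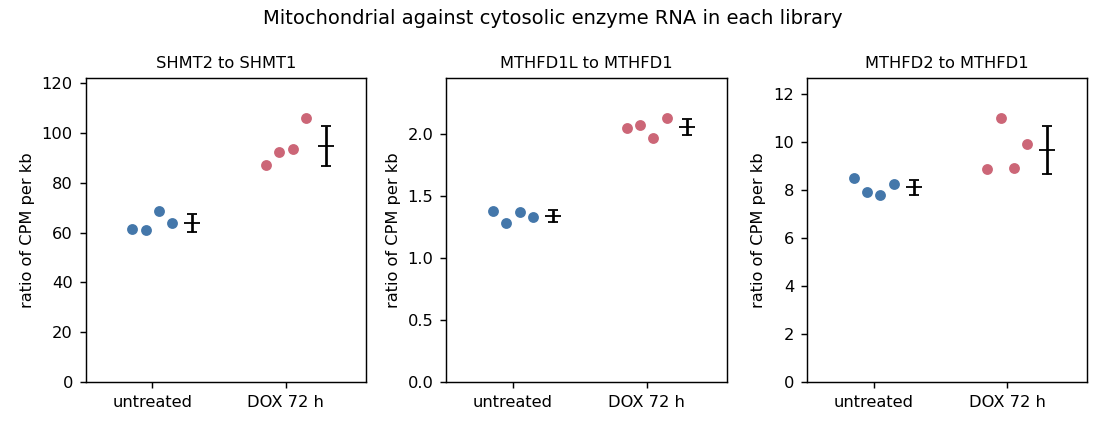
Ratio of CPM per kb of exon between mitochondrial and cytosolic enzymes in each library, with the mean ± SD of 4 libraries beside each group. DOX-treated libraries lie above untreated ones in all 3 panels, most narrowly for MTHFD2 to MTHFD1, where the highest untreated ratio is 8.49 and the lowest DOX-treated ratio is 8.88. The level of a ratio depends on the gene length used, the fold between the group means does not.

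Within each group a few libraries held most of the highest values. Among untreated libraries replicate 3 was the highest for 5 of the 8 genes, 13 of 18 ATF4 response genes and 39.7% of all tested genes. Among DOX-treated libraries replicate 2 was the highest library for 5 of the 8 genes and replicate 4 for the other 3, whereas replicates 1 and 3 were highest for 0. Over all tested genes the share with the highest value in the DOX-treated group was 21.1% in replicate 1, 32.3% in replicate 2, 19.1% in replicate 3 and 27.5% in replicate 4. In the list of 18 ATF4 response genes, replicate 2 was highest for 9 and replicate 4 for the other 9. As deviations from the group mean in log2(CPM + 0.5), the median over the 8 enzymes was -0.09, 0.04, -0.04 and 0.04 in replicates 1 to 4, and over the ATF4 list -0.11, 0.11, -0.10 and 0.11. Replicates 2 and 4 were also the DOX-treated libraries with the lowest total counts, 38390696 and 43856215 against 48363803 and 49249167, and the part of depth in this order was not tested. All 8 enzymes were called lower without DOX-treated replicate 2, where MTHFD2 had a log2FC of -0.96 and PSAT1 of -0.37.

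**Figure D3:**
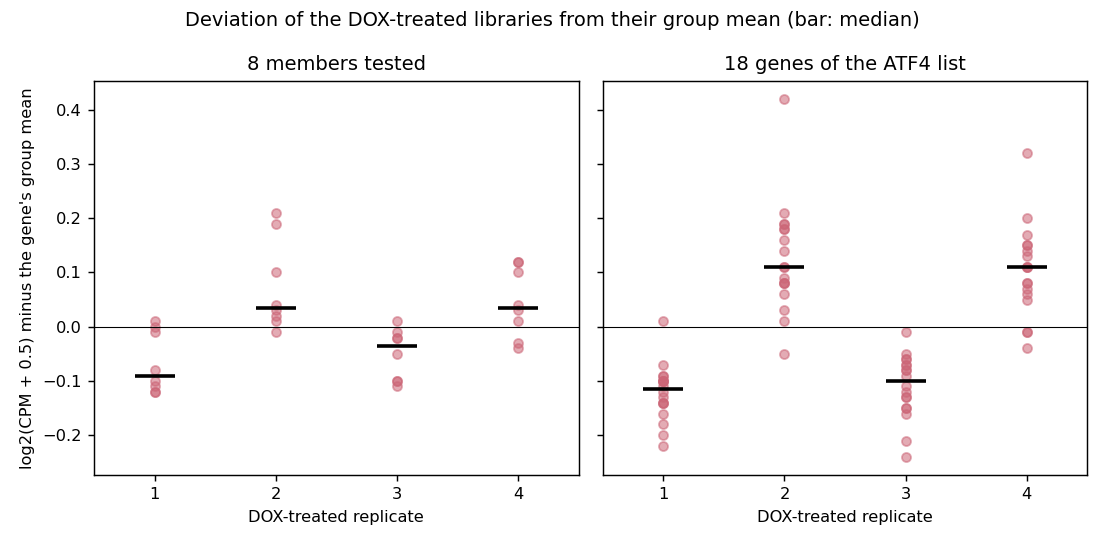
Each point is one gene's log2(CPM + 0.5) in a DOX-treated library minus its mean over the 4 DOX-treated libraries, for the 8 tested enzymes and the 18 genes of the ATF4 list, with bars at the medians. Replicates 2 and 4 lie mostly above 0 and replicates 1 and 3 mostly below, with medians up to 0.11 in size.

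The surrounding genes moved in both directions. They form 6 lists around the 9 enzymes, of which the ATF4 response list of 18 genes is not a part of the pathway itself. Of the 69 genes, 60 were tested, 32 were lower, 14 were higher and 14 were not called. Among all tested genes 38.1% were lower and 38.5% higher. The ATF4 response list gave 12 of the lower and 4 of the higher genes. Over all 60 genes the median log2FC was -0.29. Past an absolute log2FC of 1, 9 were lower and 2 higher, beside 9.81% lower and 11.0% higher among all tested genes. The ATF4 response list gave 4 of these falls and 1 of these rises. In each list the members named first are its 2 largest rises and 2 largest falls among called genes.

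**Figure D4:**
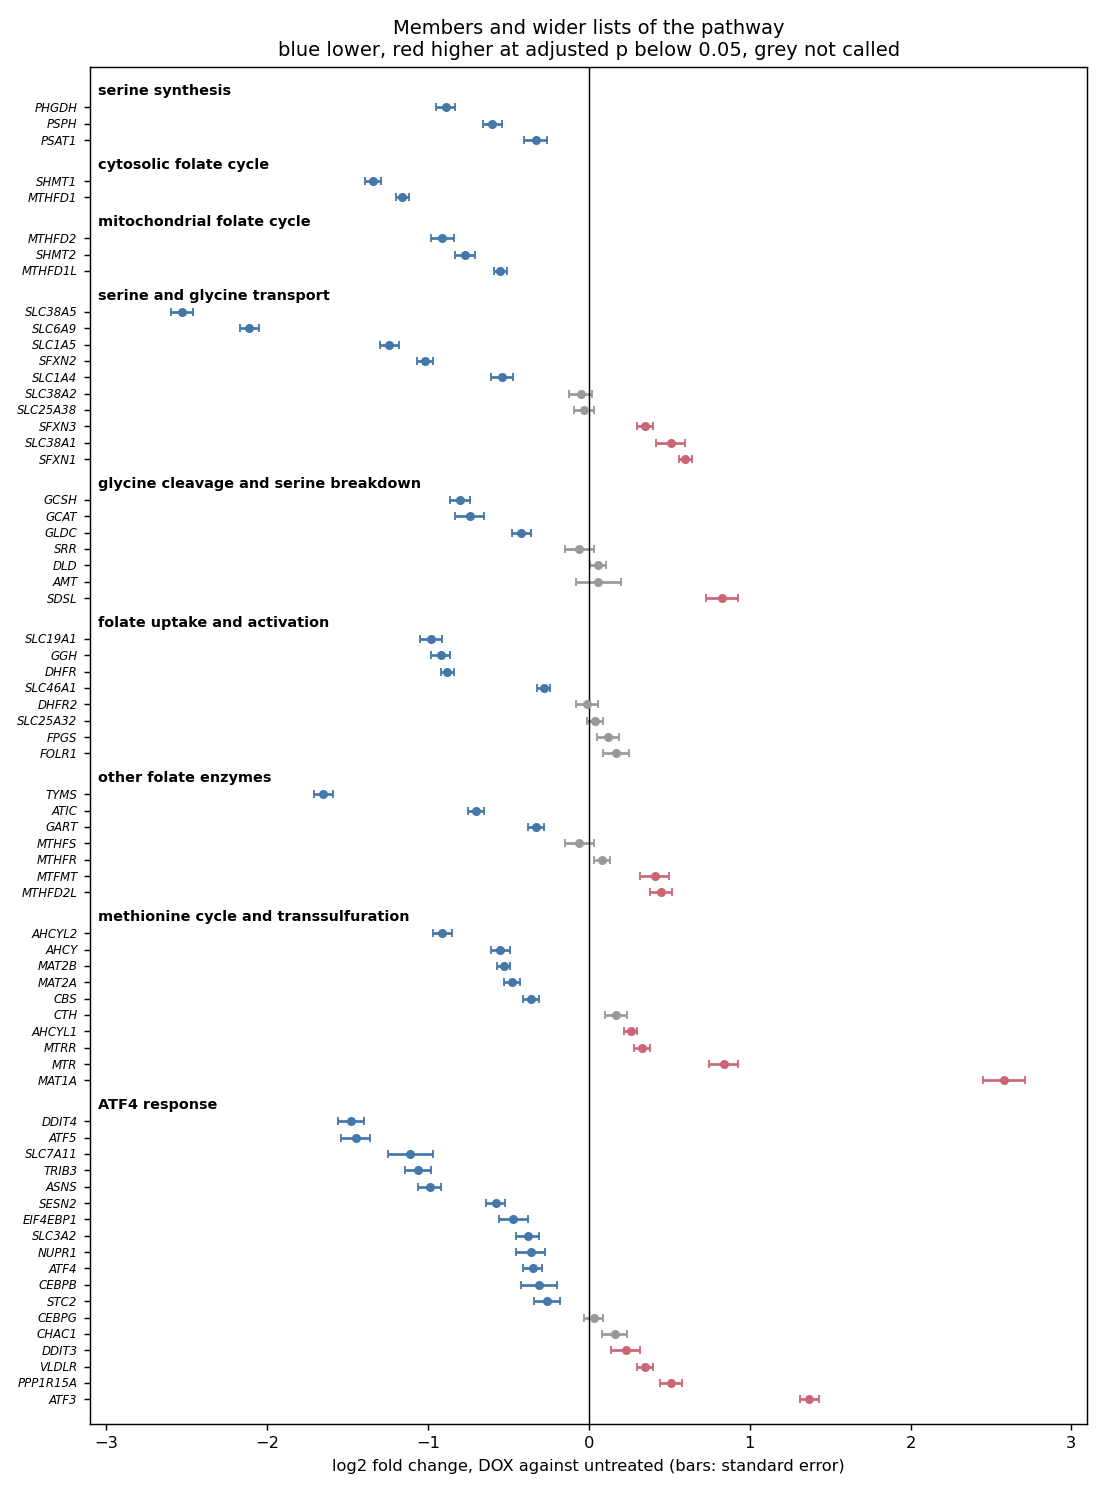
Log2FC of DOX-treated against untreated D283-OMO cells with standard errors for the 8 tested enzymes and the 60 tested genes of the 6 surrounding lists. The 8 enzymes all lie left of 0, from -1.34 to -0.33, while each surrounding list except folate uptake and activation holds genes called in both directions.

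Carriers of serine and glycine had 5 of 10 tested genes lower and 3 higher, beside 38.1% and 38.5% of all tested genes. SLC38A5, a plasma membrane carrier of neutral amino acids such as glutamine, serine and glycine, fell from 413 ± 35.7 to 71.8 ± 5.12 CPM (log2FC -2.53 ± 0.07 SE, edgeR adjusted p = 5.14e-11). SLC6A9, the glycine transporter GlyT1, fell from 149 ± 6.89 to 34.5 ± 2.09 CPM (log2FC -2.11 ± 0.06 SE, edgeR adjusted p = 2.97e-11). The log2FC of both carriers was below that of each of the 8 tested enzymes. In the other direction SFXN1, which brings serine into mitochondria, rose from 90.5 ± 2.54 to 137 ± 3.41 CPM (log2FC 0.60 ± 0.04 SE, edgeR adjusted p = 1.13e-07). SLC38A1, another neutral amino acid carrier, rose from 159 ± 17.1 to 226 ± 26.2 CPM (log2FC 0.51 ± 0.09 SE, edgeR adjusted p = 0.000332).

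Glycine cleavage and serine breakdown had 3 of 7 tested genes lower and 1 higher, beside 38.1% and 38.5% of all tested genes. GCSH, the lipoyl carrier of the glycine cleavage system, fell from 35.0 ± 2.51 to 20.1 ± 1.11 CPM and GCAT, which takes part in threonine breakdown to glycine, from 11.6 ± 1.41 to 6.98 ± 0.502 CPM (edgeR adjusted p = 2.69e-07 and 1.86e-05). SDSL, a serine dehydratase-like enzyme, rose from 2.57 ± 0.305 to 4.58 ± 0.139 CPM (log2FC 0.83 ± 0.10 SE, edgeR adjusted p = 1.24e-05).

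Folate uptake and activation had 4 of 8 tested genes lower and 0 higher, beside 38.1% and 38.5% of all tested genes. SLC19A1, the reduced folate carrier, fell from 45.8 ± 1.64 to 23.3 ± 2.35 CPM (log2FC -0.98 ± 0.07 SE, edgeR adjusted p = 9.42e-08). GGH, the hydrolase that trims polyglutamate tails from folates, fell from 32.6 ± 2.21 to 17.2 ± 0.512 CPM (log2FC -0.92 ± 0.06 SE, edgeR adjusted p = 3.06e-08).

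Other enzymes that use folate carbon had 3 of 7 tested genes lower and 2 higher, beside 38.1% and 38.5% of all tested genes. TYMS, thymidylate synthase, fell from 153 ± 11.0 to 48.9 ± 0.850 CPM (log2FC -1.65 ± 0.06 SE, edgeR adjusted p = 1.79e-10), next to -1.34 for SHMT1. ATIC, which adds the last formyl carbon of the purine ring, fell from 111 ± 7.58 to 68.5 ± 1.31 CPM (log2FC -0.70 ± 0.05 SE, edgeR adjusted p = 1.9e-07). MTHFD2L, a paralogue of MTHFD2, rose while MTHFD2 fell, from 13.8 ± 0.304 to 18.9 ± 1.70 CPM (log2FC 0.45 ± 0.07 SE, edgeR adjusted p = 6.75e-05). MTFMT, which formylates the mitochondrial initiator tRNA, rose from 7.40 ± 0.932 to 9.82 ± 0.356 CPM (log2FC 0.41 ± 0.09 SE, edgeR adjusted p = 0.00115).

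The methionine cycle and transsulfuration had 5 of 10 tested genes lower and 4 higher, beside 38.1% and 38.5% of all tested genes. AHCYL2 fell from 145 ± 10.5 to 77.3 ± 2.96 CPM and AHCY, the hydrolase of S-adenosylhomocysteine, from 496 ± 34.0 to 338 ± 18.7 CPM (edgeR adjusted p = 4.58e-08 and 4.36e-06). MTR, methionine synthase, which takes the methyl group of folate, rose from 103 ± 13.5 to 185 ± 9.57 CPM (log2FC 0.84 ± 0.09 SE, edgeR adjusted p = 3.09e-06). MAT1A, the S-adenosylmethionine synthetase known from liver, rose from 0.892 ± 0.135 to 5.33 ± 0.526 CPM (log2FC 2.58 ± 0.13 SE, edgeR adjusted p = 4.92e-09).

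Of the 18 genes of the ATF4 response list, 12 were lower and 4 higher, beside 38.1% and 38.5% of all tested genes. The median log2FC of the list was -0.36. DDIT4, an inhibitor of mTORC1, fell from 235 ± 13.4 to 84.0 ± 10.3 CPM and ATF5, a transcription factor of the same family as ATF4, from 433 ± 15.5 to 158 ± 23.1 CPM (edgeR adjusted p = 1.34e-08 and 3.31e-08). ATF3, a stress-induced repressor, rose from 33.5 ± 1.91 to 86.7 ± 5.69 CPM and PPP1R15A, the GADD34 subunit that restores translation, from 153 ± 11.1 to 218 ± 19.0 CPM (edgeR adjusted p = 1.73e-09 and 4.15e-05). ATF4 RNA itself, named after its values were seen, went from 1203 ± 100.2 to 942 ± 45.7 CPM (log2FC -0.35 ± 0.06 SE, edgeR adjusted p = 0.000261).

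The tested genes whose relative levels over the 8 libraries were closest to those of PHGDH were AC006329.1, HDDC2 and THYN1, with root mean square differences of 0.027, 0.028 and 0.032 in log2(CPM + 0.5) after each gene was centred on its untreated mean. HDDC2, a nucleotide phosphatase, had 72.7 ± 5.74 CPM untreated and 39.3 ± 1.76 CPM with DOX. Their log2FC was -1.01, -0.89 and -0.93, against -0.89 for PHGDH. For MTHFD2 they were HAUS2, a subunit of the augmin complex of the spindle, FGF14-AS2 and AC015712.2, at 0.058, 0.066 and 0.068. HAUS2 had 41.6 ± 1.18 CPM untreated and 22.5 ± 1.38 CPM with DOX (log2FC -0.89, against -0.91 for MTHFD2). The likeness of the low genes is overstated by the added 0.5 CPM, which shrinks their change. FGF14-AS2 went from 2.17 ± 0.168 to 0.924 ± 0.151 CPM (log2FC -1.24), AC015712.2 from 5.47 ± 0.332 to 2.73 ± 0.214 CPM (log2FC -1.01) and AC006329.1 from 6.70 ± 0.522 to 3.34 ± 0.264 CPM. None of these 6 genes is among the 9 enzymes or the surrounding lists.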

How the data were processed

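The RNA-Seq libraries were made from polyA+ RNA with a stranded kit. The 4 untreated and 4 DOX-treated (72 h) D283-OMO replicates, described in the study as independent biological replicates, were grouped by their labels. The authors used Trim Galore for trimming, STAR for alignment and RSEM for gene quantification on GRCh38 (GENCODE release 32), and deposited expected counts per gene, not normalized. Versions of these tools are not given in the sources used here. How RSEM divided reads among similar genes is therefore already part of the values.

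The 9 genes and the surrounding gene lists were chosen with earlier results of these data known. After rounding of the expected counts, the 15222 genes above 1 CPM in 4 libraries or more were fitted with edgeR 4.0.16 in R 4.3.3 (TMM, quasi-likelihood test, no covariates, Benjamini-Hochberg adjustment over all genes tested). A gene was called at adjusted p below 0.05. The study names more than one FDR cut, and the stricter, from its methods, was used as the second threshold. Standard errors are the absolute log2FC over the square root of the F statistic. The biological coefficient of variation was 0.0745. Floors of 3 counts cover counting error only.

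Genes named were the 9 enzymes, the 2 largest rises and falls among called genes of each surrounding list, MYC, CAD and NCL as checks, and the 3 genes closest to PHGDH and to MTHFD2. Coordinates and exon lengths came from GENCODE 29 (GRCh38), which holds 99.3% of the tested genes, and promoters from RefSeq (GRCh38.p14). Alternatives were DESeq2 1.42.0 (its size factors, and its Wald test), library size only, edgeR's likelihood ratio test, other filters, a block for replicate number, a stricter FDR of 0.001, each replicate left out, and another gene length. On simulated data with these libraries' depths, the quasi-likelihood test recovered 96 of 100 genes planted at an absolute log2FC of 1. It made 8 false calls among 15222 genes. Planted changes had an absolute log2FC of 1 or 2 only, with 100 genes at each. Recovery of smaller changes, such as the -0.33 of PSAT1, was not tested. Scaling and false calls with as many genes changed as the 76.6% called here were not tested either.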

Additional observations from a re-analysis of the deposited data

Results flagged for a closer look

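In 72 groups of 4 libraries (the 9 enzymes, the named genes of the surrounding lists, the checks and the 3 ratios), 4 held a library whose distance from its neighbour took up most of the group's range by Dixon's criterion, where chance gives 3.6. SHMT1 had 15.8 CPM in untreated replicate 2 against 15.5, 15.6 and 15.5 CPM in the others, a small absolute distance in a very tight group. ATIC had 123 CPM in untreated replicate 3 against 108, 106 and 109 CPM. MTR had 83.3 CPM in the same library against 111, 111 and 108 CPM. MTFMT had 9.29 CPM in DOX-treated replicate 4 against 9.98, 10.0 and 10.0 CPM.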

How the results depend on the processing

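The 8 tested enzymes were called lower in all 16 alternative fits, with log2FC from -0.95 to -0.76 for PHGDH, -0.37 to -0.20 for PSAT1, -0.64 to -0.47 for PSPH, -1.37 to -1.21 for SHMT1, -1.20 to -1.04 for MTHFD1, -0.82 to -0.64 for SHMT2, -0.96 to -0.78 for MTHFD2 and -0.59 to -0.42 for MTHFD1L. Over all genes, 8654 (FDR of 0.001) to 15230 (no filter) were called, and 10550 to 11747 with a replicate left out. In the surrounding lists 41 to 52 genes were called. With library size only, which shifts the median log2FC of all genes by 0.13, the share of called genes that were lower was 39.7% in place of 49.7%. By the longest transcript, SHMT2 to SHMT1 was 34.2 untreated and 50.7 with DOX, and MTHFD2 to MTHFD1 was 6.45 and 7.69, with the same ratios between groups (1.48 and 1.19). Deviations of same-numbered libraries correlated between -0.176 and 0.241 over all tested genes, so the numbers were not taken to pair the samples. With the replicate number as a block, 11805 genes and 8 of the 8 tested enzymes were called. At an FDR of 0.001 the calls of MTFMT and MYC were lost, with adjusted p of 0.00115 and 0.00237 (edgeR). Of the 9 enzymes, ALDH1L2 had the fewest counts and was tested only with no filter, where it was not called.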

Other observations

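Of the 69 genes around the pathway, 9 did not pass the filter on low counts and were tested only in the fit with no filter, and those named here were chosen after their values were seen. SDS, the serine dehydratase known from liver, had 0.204, 0.194, 0.244 and 0.224 CPM in untreated and 0.631, 0.773, 0.684 and 0.881 CPM in DOX-treated libraries, so that the groups did not overlap, from 10 to 12 and 31 to 40 counts per library. ALDH1L1, the cytosolic counterpart of ALDH1L2, had 0 to 1 counts per untreated and 2 to 7 counts per DOX-treated library. FTCD, GNMT, SLC7A10, FOLR2, BHMT and BHMT2 overlapped between the groups at 0.490 CPM or less in every untreated library. AGXT had at most 1 count in any untreated and 3 in any DOX-treated library.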
